A study of Mus musculus with 8 samples.

Results

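Long intergenic noncoding RNAs (lincRNAs) are transcripts that the annotation places between protein-coding genes and to which it gives no reading frame. In the deposited gene table of mouse intestinal crypts, 183 autosomal lincRNA genes had a mean level of at least 1 FPKM over the 8 libraries, out of 5647 lincRNA rows and 55114 rows in all. FPKM are fragment counts scaled to gene length and to the size of the library, so they allow levels to be compared between genes. The genes were chosen by this mean over all mice, with chromosomes X and Y left out, which removed 4 further lincRNAs. The levels themselves are therefore given as a description. The mean pools both genotypes, and 163 of the 183 reached 1 FPKM in each genotype's own mean, 12 in that of the Ctrl mice only and 8 in that of the KO mice only. For the 20 that did so in 1 genotype only, a difference between genotypes is in part fixed by the choice.

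The crypts came from the intestines of 8-week-old C57BL/6 mice. The KO group held 4 constitutive Mex3a knockout mice, in which exon 1 and part of exon 2 are missing from every cell of the body, and the Ctrl group held 4 littermate controls. Mex3a encodes an RNA-binding protein with a ubiquitin ligase domain that marks cells near the crypt base, and the study asked how its loss changes the crypt. Mex3a itself had 13.3 ± 2.10 CPM (counts scaled to library size after TMM normalization, SD, n = 4) in Ctrl crypts and 0.613 ± 0.417 CPM (SD, n = 4) in KO crypts, and its genotypes did not overlap.

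Each library held 20324184 to 24726221 counts on genes in the Ctrl group and 23489180 to 30654105 in the KO group. The lincRNAs took a small part of these, 0.217% to 0.233% of the counts in Ctrl mice and 0.203% to 0.238% in KO mice. Sums over marker genes of crypt cell types are given, here and below, in CPM scaled to library size alone, without TMM. On that scale, the summed level of 7 stem cell genes did not overlap between genotypes, with 5069 to 6075 CPM in Ctrl and 3858 to 4888 CPM in KO mice. Whether it would overlap after TMM scaling was not tested. The summed level of 6 proliferation genes overlapped, with 1437 to 1857 CPM in Ctrl and 1310 to 1875 CPM in KO mice. Enterocyte genes summed to 1608 to 3465 CPM against 2147 to 7664 CPM, Paneth cell genes to 15356 to 43107 CPM against 7755 to 23638 CPM, and T cell genes to 11.0 to 41.8 CPM against 24.8 to 90.5 CPM, each time Ctrl against KO. In bulk crypts fewer cells of a type and less RNA per cell cannot be told apart, and the part of these shifts in the lincRNA values was not tested.

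As background, lincRNAs act in several ways. Some, such as Malat1 and Neat1, stay in nuclear bodies, and others, such as Norad, work in the cytoplasm by holding RNA-binding proteins. Others are carriers, with a microRNA cut from the transcript or a small nucleolar RNA (snoRNA) in an intron, and many more have no known function. MicroRNAs are short RNAs that lower the output of messenger RNAs which pair with their seed, the bases from position 2 to 8, and snoRNAs guide the chemical modification of ribosomal RNA.

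The microRNA host with the smallest p-value among all these lincRNAs was Mir17hg, the carrier of the miR-17-92 cluster, whose members favour cell growth and survival and answer to MYC. Its gene lies at chr14:115042879-115046727 on the plus strand of GRCm38, and 6 microRNA hairpins lie within it. The main mature strands are printed here from RefSeq (GRCm38.p6), 5′ to 3′, with the seed in capitals, because they show that the cluster holds a small number of seeds. The libraries measured the host transcript, not these mature strands.
miR-17-5p: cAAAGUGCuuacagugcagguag
miR-20a-5p: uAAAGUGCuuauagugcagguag
miR-18a-5p: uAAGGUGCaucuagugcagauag
miR-19a-3p: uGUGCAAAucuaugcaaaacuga
miR-19b-3p: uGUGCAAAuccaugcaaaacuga
miR-92a-3p: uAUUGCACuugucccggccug

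miR-17-5p and miR-20a-5p share the seed AAAGUGC, miR-19a-3p and miR-19b-3p share GUGCAAA, and miR-18a-5p and miR-92a-3p each have a seed of their own. Mir17hg had 22.2, 24.2, 18.8 and 20.2 CPM in the 4 Ctrl mice and 15.7, 11.1, 15.4 and 15.8 CPM in the 4 KO mice. All KO mice lay below all Ctrl mice, and the lowest KO value, that of KO replicate 2, stood apart from the other KO mice. The means were 21.3 ± 2.38 CPM against 14.5 ± 2.25 CPM (SD), a log2 fold change of -0.56 ± 0.14 (SE). In edgeR's quasi-likelihood test the unadjusted p was 0.00321 and the p adjusted over all 16109 genes tested was 0.518. DESeq2 gave it an adjusted p of 0.0483, and over all the alternatives run the adjusted p ranged from 0.0483 to 0.952.

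A 2nd microRNA cluster touches the lincRNA Gm26532, a gene of 1 exon at chr8:84208920-84209609 on the plus strand. The hairpins of miR-23a, miR-27a and miR-24-2 lie on the same strand just before it, 328 and 162 bases away for the first pair, and that of miR-24-2 ends 1 base past the start of Gm26532. Their 3p strands follow from RefSeq (GRCm38.p6), with the seed in capitals, to show what is encoded next to the lincRNA.
miR-23a-3p: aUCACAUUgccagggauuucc
miR-27a-3p: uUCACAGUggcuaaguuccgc
miR-24-3p: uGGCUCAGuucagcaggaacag

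Gm26532 had 1.52, 1.402, 1.81 and 1.96 CPM in Ctrl mice and 2.81, 1.98, 3.59 and 2.59 CPM in KO mice. All KO mice lay above all Ctrl mice, although the nearest pair, 1.96 and 1.98 CPM, was close. The log2 fold change was 0.71 ± 0.24 (SE; edgeR unadjusted p = 0.0141, adjusted p = 0.518). Zswim4, the nearest coding gene, 1069 bases away on the other strand, had a log2 fold change of 0.19 ± 0.12 (SE) and was not called (edgeR unadjusted p = 0.141).

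Across all lincRNAs, few differed between genotypes, and after adjustment edgeR called none and DESeq2 called 1. Of the 183, 180 had counts enough to be tested, and 3 (4930479H17Rik, Gm44174 and Gm27028) had not. With edgeR's unadjusted p under 0.05, which is what "called" means here, 7 lincRNAs were higher and 7 were lower in KO crypts, 7.78% of those tested. Of these, 1700016G22Rik and Gm42031 were in the set only through their KO mean and Gm47467 only through its Ctrl mean, so their calls are given as a description, and 5 higher and 6 lower reached the level in both genotypes. The same rule called 1350 of 16109 genes, 8.38%, of which 859 (5.33%) were higher and 491 (3.05%) lower, so the share of lincRNAs called was close to that of all genes. These calls do not use the replicate numbers. With the replicate number as a block, edgeR called 19 of 182 lincRNAs tested, beside 11.0% of all genes. At an adjusted p under 0.05 edgeR called 0 lincRNAs, with 14 at the unadjusted p, and 0.00621% of all genes, which was Mex3a alone. DESeq2 called 1 lincRNA, Mir17hg, and 93 genes (0.669%). For 3 lincRNAs, or 1.67% of those tested, the genotypes did not overlap, against 4.05% of all genes. These were Gm26532 with higher values in KO mice, as 2.17% of all genes had, and Mir17hg and 4632404H12Rik with lower values, as 1.87% of all genes had.

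**Figure D1:**
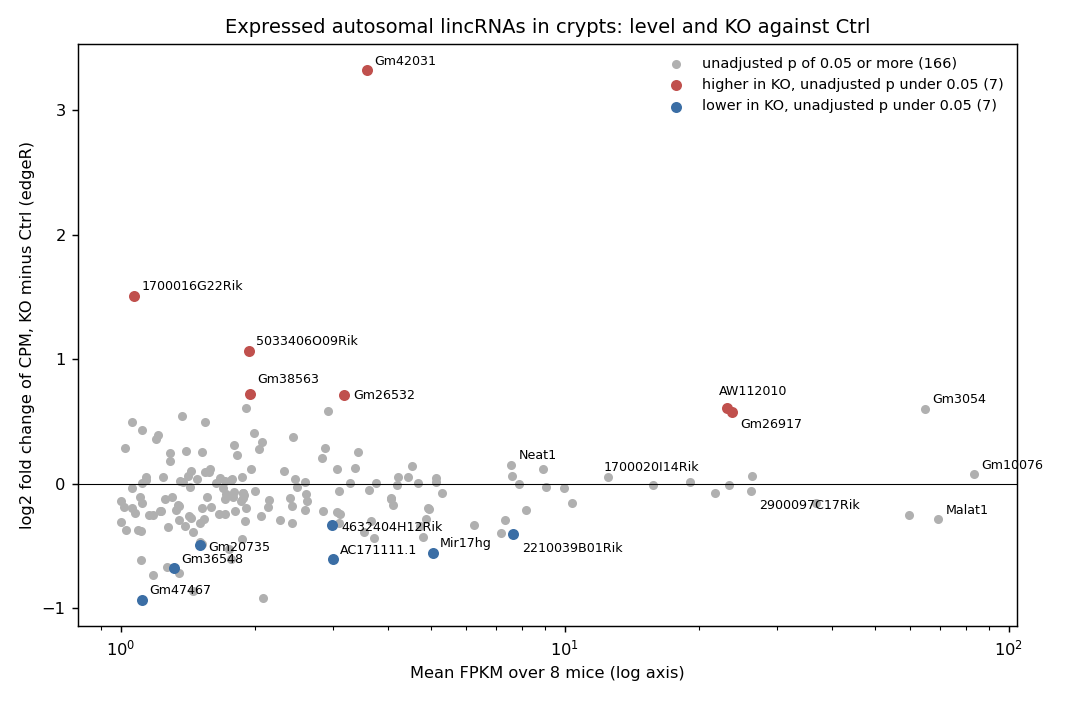
Mean FPKM over 8 mice (log axis) against the log2 fold change of KO over Ctrl for the 180 lincRNAs tested, with red and blue points for the 7 higher and 7 lower at an unadjusted p under 0.05 and grey points for the other 166. Most points lie close to 0, Gm42031 stands far above the rest at 3.32, and the lincRNAs with a level above 30 FPKM are all grey.

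The fold changes as a whole lay slightly below 0. The median log2 fold change was -0.09 for the lincRNAs and -0.02 for all genes, and 111 of 180 lincRNAs (61.7%) had a negative value against 53.9% of all genes. Protein-coding autosomal genes of a similar level, from 1 to under 5 FPKM, had a median of -0.03 and a negative value in 57.8%. The median stayed negative in every alternative run, from -0.12 to -0.05. Of the 180 values, 108 lay within 0.25 of 0 and 3 lay at least 1 away from it, all of them above 0.

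**Figure D2:**
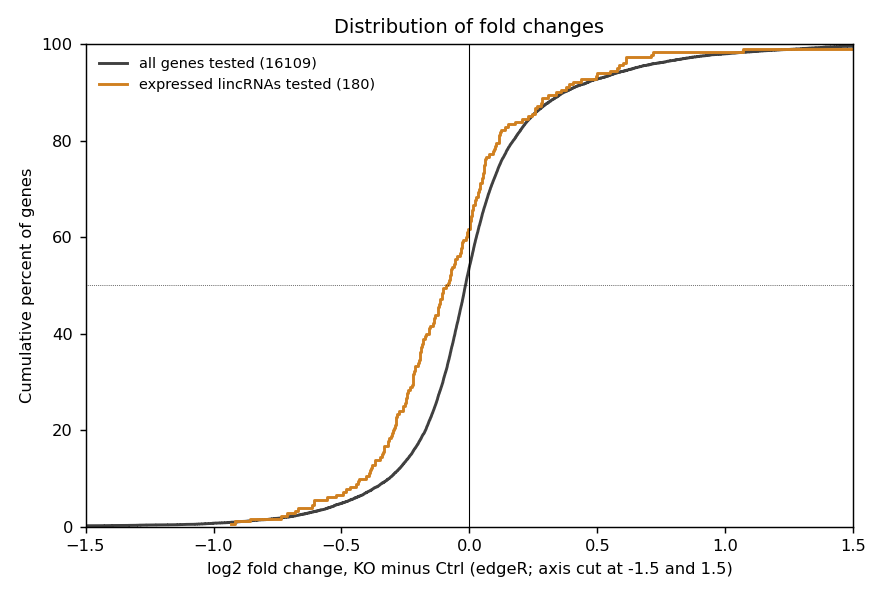
Cumulative percent of genes (vertical axis) by log2 fold change of KO over Ctrl (horizontal axis, without its far ends) for 180 lincRNAs (orange) and all 16109 genes tested (black). The orange curve lies to the left of the black one through the middle of the range, where the medians are -0.09 and -0.02, and the curves meet on the right.

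The spread between mice was wide at these low levels. The median coefficient of variation within a genotype was 23.0% for the lincRNAs, against 10.7% for protein-coding autosomal genes of at least 1 FPKM and 13.8% for those from 1 to under 5 FPKM. The median lincRNA had a mean of 71.9 counts per library while the median coding gene had 962 at 1 FPKM or more and 313 from 1 to under 5 FPKM. The steadiest lincRNA tested was 5031425E22Rik, at 5.01%, and the least steady was Gm42031, at 132%.

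The other lincRNAs called lower in KO crypts were found next to genes of varied function. AC171111.1 lies at chr17:14249851-14277755 on the plus strand and ends 1751 bases before Smoc2, a secreted matrix protein whose gene is used as a stem cell marker. It had 13.1, 10.2, 8.69 and 11.2 CPM in Ctrl mice and 8.98, 6.21, 6.71 and 6.48 CPM in KO mice. The genotypes overlapped in 1 pair only, the lowest Ctrl and the highest KO mouse. Its log2 fold change was -0.61 ± 0.18 (SE; edgeR unadjusted p = 0.00689, adjusted p = 0.518). Smoc2 on the same strand was lower too, with 237 ± 16.02 CPM in Ctrl and 191 ± 21.01 CPM in KO crypts (SD), a log2 fold change of -0.31 (edgeR unadjusted p = 0.00892, adjusted p = 0.518). The stem cell marker sum, of which Smoc2 is a member, was also lower in KO mice, and its part in the level of AC171111.1 was not tested.

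4632404H12Rik, a transcript of 1 exon on chr3:89767511-89773240, starts on the opposite strand from Ube2q1, a ubiquitin-conjugating enzyme 376 bases away. It had 17.8, 18.9, 18.7 and 21.3 CPM in Ctrl mice and 14.4, 13.5, 16.8 and 16.3 CPM in KO mice. The genotypes did not overlap, and the change was small, with a log2 fold change of -0.33 ± 0.11 (SE; edgeR unadjusted p = 0.0145, adjusted p = 0.518). Ube2q1 had a log2 fold change of 0.00 ± 0.06 (SE) and an edgeR unadjusted p of 0.991.

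4 more were called lower with overlapping genotypes. 2210039B01Rik, 2086 bases from the flippase subunit gene Tmem30b, had 9.16 ± 1.91 CPM in Ctrl and 6.93 ± 0.562 CPM in KO mice (SD). Gm36548, 56901 bases before the cell cycle kinase gene Cdk6, had 1.71 ± 0.416 CPM against 1.06 ± 0.288 CPM, and Gm47467, among zinc finger genes on chromosome 13, had 0.582 ± 0.143 CPM against 0.304 ± 0.108 CPM. Gm47467 was admitted by its Ctrl mean of 1.46 FPKM, against 0.768 FPKM in KO mice. Gm47467 and Gm36548 both have a copy of at least 95% identity elsewhere in the transcriptome, so their reads are uncertain. Gm20735, named after its values were seen, had 3.50 ± 0.822 CPM against 2.48 ± 0.216 CPM and lies within the read-through gene Gm20388 on the other strand. With the replicate number as a block, Gm20735 and Gm47467 were no longer called (edgeR unadjusted p = 0.0731 and 0.0584). All 4 lost the call with single mice left out. This was so for 2210039B01Rik without Ctrl replicate 1, 2 or 4 or KO replicate 2, 3 or 4 (edgeR unadjusted p of up to 0.126), and for Gm36548 without Ctrl replicate 1 or 3 or KO replicate 1, 2 or 3 (up to 0.110). It was so for Gm47467 without Ctrl replicate 3 or 4 or KO replicate 2, 3 or 4 (edgeR unadjusted p of up to 0.0750), and for Gm20735 without any 1 mouse other than Ctrl replicate 1 (up to 0.140). Gm47467 also lost the call with DESeq2 (unadjusted p = 0.0803). Its log2 fold change ran from -0.95 to -0.48 over the alternatives that kept all mice. In all, Gm20735 lost the call in 10 of its 19 alternatives.

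**Figure D3:**
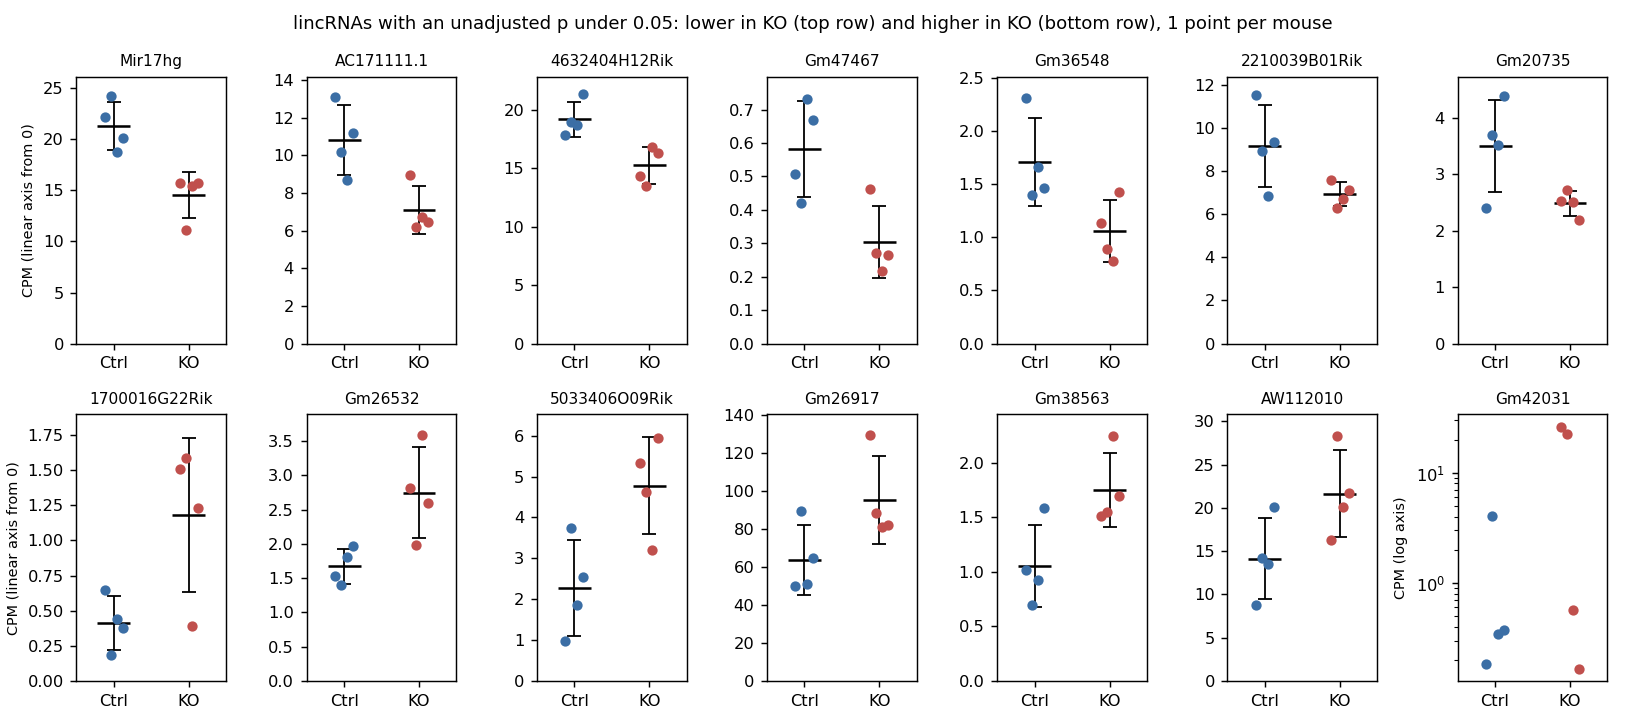
CPM in each of the 4 Ctrl (blue) and 4 KO (red) mice for the 14 lincRNAs called, with the mean and SD in black and axes from 0, except for Gm42031, which is drawn on a log axis without mean or SD. The genotypes do not overlap for Mir17hg, 4632404H12Rik and Gm26532, and for Gm42031 the KO mice fall into a high pair of 26.2 and 22.2 CPM and a low pair of 0.563 and 0.166 CPM.

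Among the lincRNAs called higher, 1700016G22Rik had the highest fold change apart from Gm42031. It lies at chr13:5855508-5858092 on the minus strand, 3390 bases from Klf6 on the plus strand, a zinc finger transcription factor gene of the Krüppel-like family. It had 0.647, 0.187, 0.439 and 0.376 CPM in Ctrl mice and 1.51, 1.59, 0.389 and 1.23 CPM in KO mice. KO replicate 3 lay within the Ctrl range and the other KO mice lay above it. The log2 fold change was 1.51 ± 0.49 (SE; edgeR unadjusted p = 0.0123, adjusted p = 0.518), on 4 to 41 counts per library. Over the alternatives that kept all mice, this fold change ran from 0.70 to 1.53. The mean of 1700016G22Rik was 0.552 FPKM in Ctrl and 1.59 FPKM in KO mice, so it was admitted by the group in which it was higher. Klf6 had 104 ± 6.05 CPM in Ctrl and 121 ± 21.1 CPM in KO crypts (SD), and its log2 fold change of 0.23 was not called (edgeR unadjusted p = 0.0856).

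5033406O09Rik, at chr12:111941991-111944484, had 0.970, 3.74, 1.86 and 2.55 CPM in Ctrl mice and 5.33, 4.62, 3.20 and 5.95 CPM in KO mice. Its genotypes overlapped in 1 pair, and the log2 fold change was 1.07 ± 0.37 (SE; edgeR unadjusted p = 0.0183). Gm38563 on chromosome 15, 234857 bases from the nearest coding gene, had 1.06 ± 0.377 CPM against 1.75 ± 0.341 CPM (SD) and an edgeR unadjusted p of 0.0341. The call of Gm38563 was lost without Ctrl replicate 1, 2 or 3 or KO replicate 3 or 4 (edgeR unadjusted p of up to 0.0994).

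AW112010 is a lincRNA of immune and inflamed cells, from which a short protein can be made. It was among the 10 most abundant lincRNAs at 23.1 FPKM. It had 8.73, 14.2, 13.6 and 20.1 CPM in Ctrl mice and 16.3, 28.4, 20.1 and 21.8 CPM in KO mice. The genotypes overlapped through Ctrl replicate 4, and the log2 fold change was 0.61 ± 0.25 (SE; edgeR unadjusted p = 0.0361, adjusted p = 0.567). The call was lost without Ctrl replicate 1, 2 or 3 or KO replicate 2 or 4, with an edgeR unadjusted p of up to 0.110 and a log2 fold change of 0.44 without Ctrl replicate 1. Ms4a8a, a membrane protein gene 16905 bases before it on the same strand, was higher as well, with a log2 fold change of 0.74 and an edgeR unadjusted p of 0.00356. The 6 T cell genes summed to 11.0 to 41.8 CPM in Ctrl and 24.8 to 90.5 CPM in KO mice. The 5 myeloid genes summed to 18.3 to 30.4 CPM in Ctrl and 19.9 to 29.2 CPM in KO mice. For the 5 B and plasma cell genes the sums were 13.2 to 24.9 CPM and 16.2 to 24.2 CPM. The part of these cells in the level of AW112010 was not tested.

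Gm26917 on chromosome 17 is annotated as a lincRNA but resembles ribosomal RNA in sequence. It had 49.7, 89.6, 51.1 and 64.5 CPM in Ctrl mice and 129, 88.5, 80.7 and 81.9 CPM in KO mice. KO replicate 1 stood above all others and Ctrl replicate 2 lay within the KO range. Its log2 fold change was 0.58 ± 0.22 (SE; edgeR unadjusted p = 0.0244), and 0.39 with an unadjusted p of 0.0759 without KO replicate 1. The call was also lost without Ctrl replicate 1 or 3 (edgeR unadjusted p = 0.0675 and 0.0705). Lars2, the other tested row of that list, had a log2 fold change of 0.00 and an edgeR unadjusted p of 0.983.

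Gm42031, named after its values were seen, had the highest fold change of the lincRNAs and the widest spread. It lies at chr8:85125872-85132289 on the minus strand, 2777 bases from the zinc finger gene Zfp791. It had 0.185, 4.02, 0.342 and 0.376 CPM in Ctrl mice and 26.2, 22.2, 0.563 and 0.166 CPM in KO mice, from 624 and 573 counts in the high pair of KO libraries to 4 counts in the lowest library. The high values belonged to KO replicates 1 and 2. With a covariate for more than 100 counts on the Y-linked gene Ddx3y, the log2 fold change was 2.50 (edgeR unadjusted p = 0.0334). Its mean was 0.648 FPKM in Ctrl and 6.51 FPKM in KO mice, so it too was admitted by its KO values. Without the covariate the log2 fold change was 3.32 ± 1.46 (SE; edgeR unadjusted p = 0.0486, adjusted p = 0.590). Without KO replicate 1 it was 2.64 (edgeR unadjusted p = 0.122), and without KO replicate 2 it was 2.88 (edgeR unadjusted p = 0.09998). The call was also lost without Ctrl replicate 1, 3 or 4 (edgeR unadjusted p of 0.101 to 0.107). In all, it was lost in 8 of the 19 alternatives, with the highest unadjusted p, 0.196, from limma on log2(FPKM + 0.1). Among the alternatives that kept all mice, the log2 fold change ran from 1.45 to 3.33.

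Of the 10 most abundant lincRNAs, AW112010 and Gm26917 were called, as above, and the other 8 were not, where 8.38% of all genes were called. Malat1, a nuclear speckle RNA at chr19:5795690-5802672, held 21.7% of all counts on the lincRNAs and had a mean of 69.3 FPKM. It had 560.2, 395, 616 and 567 CPM in Ctrl mice and 381, 392, 542 and 438 CPM in KO mice. Its genotypes overlapped, with a log2 fold change of -0.29 ± 0.16 (SE) and an edgeR unadjusted p of 0.103, or 0.0302 with the replicate number as a block. Malat1 was also called without Ctrl replicate 2 or KO replicate 3 (edgeR unadjusted p = 0.0139 and 0.0277). It was called in 4 of the 19 alternatives in all, and its edgeR unadjusted p rose to 0.247 without Ctrl replicate 3. Neat1, the scaffold of the paraspeckle, lies beside Malat1 on the same chromosome and had 149.9 ± 35.2 CPM in Ctrl and 167 ± 17.5 CPM in KO crypts (SD), with a log2 fold change of 0.15 ± 0.15 (SE). For Neat1 this ran from 0.059 without Ctrl replicate 3 to 0.32 without Ctrl replicate 4, where it was called (edgeR unadjusted p = 0.0183).

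The lincRNAs that act in the cytoplasm had close levels in both genotypes. 2900097C17Rik, which RefSeq lists as a synonym of both Bscl2 and Norad and which is described here as Norad, a sponge of Pumilio RNA-binding proteins, had 132 ± 9.47 CPM in Ctrl and 127 ± 8.37 CPM in KO crypts (SD, n = 4) and a mean of 26.2 FPKM. 1700020I14Rik, or Oip5os1, known as Cyrano and linked to the decay of a microRNA, had 159 ± 13.9 CPM and 160.4 ± 14.6 CPM at 19.1 FPKM. A lincRNA copy, Gm7292, matches 51.6% of the 2900097C17Rik transcript at 99.2% identity, so its reads are uncertain. Their log2 fold changes were -0.06 ± 0.08 and 0.01 ± 0.09 (SE), so neither difference exceeded the spread between mice.

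Gm10076 led the list by level, at 83.6 FPKM, but its single exon is 99.5% identical to the ribosomal protein gene Rpl41, and its reads cannot be assigned to it with certainty. It had 31.4 ± 4.49 CPM in Ctrl and 33.1 ± 3.61 CPM in KO mice. Gm42047 and AC102496.1, at 26.4 and 36.8 FPKM, varied far more between mice than between genotypes, from 50.6 to 214 CPM and from 19.9 to 65.3 CPM, and both have a near-identical copy as well. Tmem250-ps, at 23.4 FPKM, had 58.6 ± 7.08 CPM against 58.1 ± 2.37 CPM. In all, 11 of the 183 lincRNAs have a copy of at least 95% identity over at least 50% of their transcript, and for 5 the copy is in a protein-coding gene.

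Among the snoRNA host genes, 5 of the 15 noncoding hosts tested were called lower by edgeR and 0 higher, against 3.05% and 5.33% of all genes. A negative log2 fold change was seen for 14 of the 15, against 53.9% of all genes, and the median was -0.25, against -0.09 for the lincRNAs and -0.02 for all genes. This median ran from -0.13 without Ctrl replicate 1 to -0.35 without KO replicate 1. The 5 called were Gas5, 2410006H16Rik, Snhg17, Snhg8 and Snhg15, which the annotation classes as processed transcripts rather than lincRNAs. Gas5, whose transcript is short-lived and carries a row of box C/D snoRNAs, had 186 ± 15.2 CPM in Ctrl and 146 ± 18.99 CPM in KO crypts (SD), with a log2 fold change of -0.35 ± 0.10 (SE) and an edgeR unadjusted p of 0.00794. No adjusted p of the 15 was under 0.05 in edgeR. With the replicate number as a block, 8 of the 15 were called lower, where 11.0% of all genes were called. The number called depended on single mice, from 1 without Ctrl replicate 1, KO replicate 2, KO replicate 3 or KO replicate 4 to 9 without KO replicate 1, while 13 or 14 of the 15 kept a negative value in each fit on those genes.

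5 of these hosts are expressed lincRNAs, and none of them was called, where 8.38% of all genes were. Epb41l4aos, at 59.5 FPKM, had 31.6, 28.2, 23.7 and 28.4 CPM in Ctrl mice and 29.3, 19.9, 22.5 and 22.2 CPM in KO mice, with overlap through KO replicate 1. Its log2 fold change was -0.25 ± 0.14 (SE; edgeR unadjusted p = 0.101, or 0.0432 with the replicate block), and it was called at -0.38 without KO replicate 1 (edgeR unadjusted p = 0.0120). Snhg20 had a log2 fold change of -0.29 ± 0.18 (edgeR unadjusted p = 0.145, or 0.0403 with the block). With 1 mouse left out this ran from -0.39 to -0.15, and the edgeR unadjusted p reached 0.413 without Ctrl replicate 2. Snhg20 was called in 2 of the 19 alternatives. The log2 fold change was -0.16 ± 0.11 for Snhg12 and -0.07 ± 0.17 for Snhg6. Snhg18, host of Snord123, was the only one of the 15 listed hosts above 0, at 0.05 ± 0.13. By position, 8 of the 183 lincRNAs hold an annotated small nucleolar or related RNA, with 6 negative and 2 positive log2 fold changes and a median of -0.20. The other positive one was Snhg10, which holds Scarna13, is not on the list and had 0.05, and it is named after its value was seen.

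**Figure D4:**
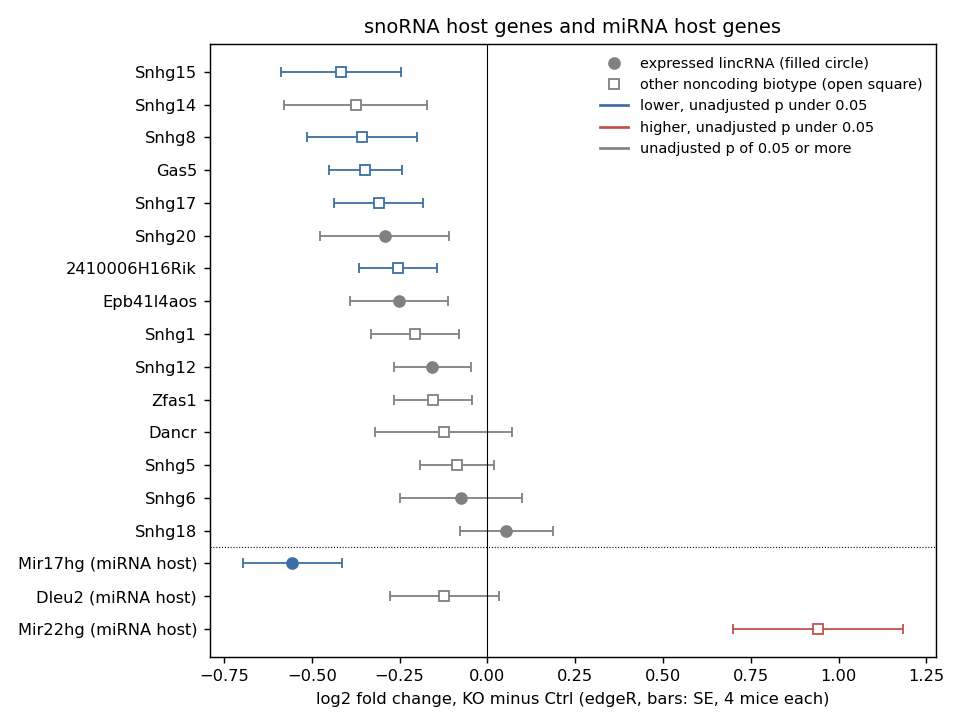
log2 fold change of KO over Ctrl with its SE (horizontal axis) for 15 snoRNA host genes and, below the dotted line, 3 microRNA host genes. Filled circles are lincRNAs of the set described here and open squares other noncoding genes, blue and red mark an unadjusted p under 0.05, and 14 of the 15 snoRNA hosts lie left of 0.

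Among microRNA hosts, Mir17hg was the only lincRNA called. The other tested hosts of the list are not lincRNAs by annotation. Mir22hg, host of the growth-limiting miR-22, was higher in KO crypts, with 7.23 ± 1.79 CPM in Ctrl and 13.9 ± 3.84 CPM in KO mice (SD) and a log2 fold change of 0.94 (edgeR unadjusted p = 0.00336, adjusted p = 0.518, DESeq2 adjusted p = 0.0318), and Dleu2, host of miR-15a and miR-16-1, had a log2 fold change of -0.12 ± 0.15 (SE). By position, 9 of the 183 lincRNAs hold a microRNA, of which 8 were tested. AL805899.1, which holds miR-31 and was named after its values were seen, had 5.94 ± 1.10 CPM in Ctrl and 5.64 ± 1.35 CPM in KO mice, and 4833445I07Rik, which holds miR-191 and miR-425, had 4.26 ± 0.730 CPM and 4.31 ± 0.300 CPM.

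The remaining lists held few expressed lincRNAs. The lists of imprinted and homeobox-adjacent transcripts held none of the 183. Of the 4 and 2 listed genes tested none was called in either direction, where 8.38% of all genes were. Outside the lists, Gm53 lies nearest to Hoxb9, Gm27033 nearest to Pdx1, and CT030636.1 and CT030636.2 overlap the imprinted Airn. Of 8 genes tested from the list linked to p53 and MYC, 2 were called lower (Mir17hg and Gas5) and 1 higher (Mir22hg), where 3.05% and 5.33% of all genes were. Of 2 immune lincRNAs tested, AW112010 was called higher and Pvt1 was not called, where 5.33% of all genes were called higher. In all, 12 of the 183 were on a role list and 161 are listed in the deposited table under a clone, RIKEN or Gm name.

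The lincRNAs lie close to coding genes. The median distance to the nearest one was 3712 bases, 101 lay within 5000 bases, 26 overlapped one, and 27 started within 1000 bases of a coding start on the opposite strand. Of the 26 that overlap a coding gene, 5 overlap only the long read-through gene Gm20388. Of the 26, 1 was called, Gm20735, which is 1 of those 5, and of the 27 with an opposite-strand start, 1 was called, 3.85% and 3.70% against 8.38% of all genes. The strand setting of the counting is not given in the sources used here, so reads of overlapping genes cannot be told apart.

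For 149 lincRNAs both the transcript and its nearest coding gene were tested. The log2 fold changes of the pairs had a Pearson correlation of 0.19 and a Spearman correlation of 0.32, as a description across genes of the same 8 libraries, which are not independent replicates, and 89 pairs had the same sign. The pairs hold 137 distinct coding genes, of which 12 were called, 8.76%, against 8.38% of all genes. Among the 149 pairs, the lincRNA was called in 10 and the coding gene in 14 (9.40%). In 2 pairs both genes were called, AC171111.1 with Smoc2 and AW112010 with Ms4a8a, and both genes of each pair moved the same way. Negative values alone made up 61.7% of the lincRNAs and 53.9% of all genes tested. Whether 2 such pairs, or 89 of the same sign, exceed what these separate shares give was not tested. For the 17 overlapping pairs the Pearson correlation was 0.67 and the Spearman correlation 0.50, and 10 pairs had the same sign.

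A pair of lincRNAs near Muc3, a membrane mucin gene of the enterocyte brush border, is described with values seen beforehand. Muc3 had a log2 fold change of 0.65 ± 0.11 (SE) and an edgeR unadjusted p of 0.000143 (adjusted p = 0.329). Gm3054, 4707 bases before it on the same strand and among the 10 most abundant lincRNAs at 64.9 FPKM, had 14.1, 6.35, 16.6 and 17.9 CPM in Ctrl mice and 14.1, 15.3, 23.1 and 30.8 CPM in KO mice. Its genotypes overlapped, and its log2 fold change of 0.60 ± 0.34 (SE) was not called (edgeR unadjusted p = 0.111), but with the replicate block p was 0.0153. With 1 mouse left out the log2 fold change ran from 0.35 to 0.76, and the edgeR unadjusted p reached 0.327 without KO replicate 4. Gm3054 was called in 2 of the 19 alternatives. Gm40348, 17128 bases away on the other strand, had a log2 fold change of 0.59 ± 0.27 (edgeR unadjusted p = 0.0562). The enterocyte marker sum ranged from 1608 to 3465 CPM in Ctrl and from 2147 to 7664 CPM in KO mice, and its part in these values was not tested.

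**Figure D5:**
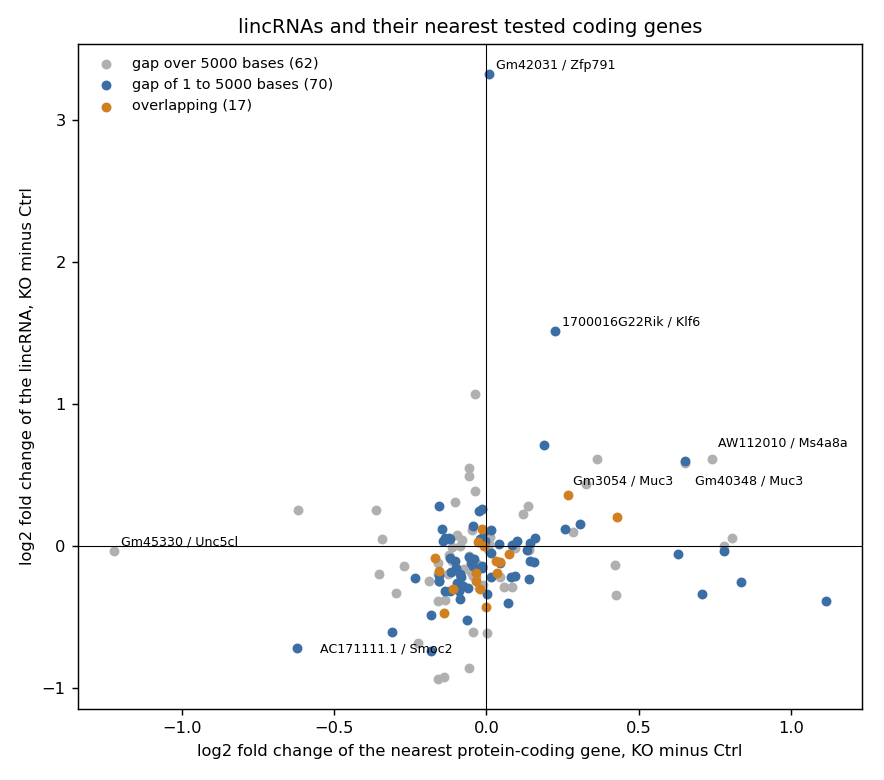
log2 fold change of each lincRNA (vertical axis) against that of its nearest coding gene (horizontal axis) for 149 pairs, coloured by whether they overlap (17), lie up to 5000 bases apart (70) or farther (62). The named pairs are those with both genes called, those near Muc3, and the points farthest out, and most of the cloud lies near 0 on both axes.

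The study names a short recognition element for MEX3A, a pair of 4-base motifs with up to 8 bases between them. In the longest annotated transcript (GENCODE M21, GRCm38, sense strand) 148 of 183 lincRNAs (80.9%) had a match, and the median number per transcript was 2. Of 10261 protein-coding autosomal genes of at least 1 FPKM, 92.1% had one, and the median was 5. The lincRNAs are shorter, with a median of 1245 against 3280 bases, and per kilobase they held 2.13 matches against 1.72. A match is a stretch of letters and was not tested for binding.

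Mir17hg held 14 matches in 3536 bases, and 2 of them lie within the hairpins of miR-18a and miR-20a. They are printed with 5 bases on either side and the pair of motifs in capitals, because they fall in the part of the transcript from which the microRNAs are cut. The 1st lies at bases 703 to 717 of the transcript and the 2nd at bases 1018 to 1028.
Mir17hg, in miR-18a: gtgaaGTAGactagcaTCTActgcc
Mir17hg, in miR-20a: agtgtGTAGccaTCTActgca

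4632404H12Rik also held 14 matches, and Gm26532 and AC171111.1 held 2 each. Neat1 held 48 in its 20771 bases and Malat1 17, while Gm10076, Epb41l4aos and Gm26917 held 0.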

How the data were processed

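RNA was measured in crypts that EDTA had released from the intestines of 4 KO mice and 4 littermate controls. Total RNA was taken up in TRIzol and sequenced on an Illumina NovaSeq instrument. Whether poly(A) RNA was selected, and the strand setting of the counting, are not given in the sources used here. Per the labels, the authors called bases with CASAVA, aligned reads with HISAT2 2.0.5 and made the deposited counts per gene with featureCounts 1.5.0-p3. The deposited FPKM are the same counts divided by gene length and library size, as computed by the authors. The genome build is not given there. The deposited starts and ends matched GENCODE M21 (GRCm38) for 182 of the 183 lincRNAs, so positions are given on that build. The authors' own fold changes, p-values and group means were not used.

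Counts were tested with edgeR 4.0.16 in R 4.3.3 (filterByExpr, TMM, quasi-likelihood F-test, genotype as the only term, Benjamini-Hochberg over 16109 genes). CPM are after TMM scaling, except for the sums over cell type markers, which are scaled to library size alone. DESeq2 1.42.0 and limma 3.58.1, on log2(FPKM + 1) and log2(FPKM + 0.1), were alternatives, as were other scaling factors and filters, a replicate block, and each mouse left out. A further alternative had a covariate for whether a library held more than 100 counts on the Y-linked gene Ddx3y. The code was tested on simulated data. The lincRNAs and the gene lists were chosen with earlier results of these data known. Named were the lincRNAs on a role list, the 10 with the highest mean FPKM, in each direction the 6 with the smallest p, the coding neighbours of the latter, and Mex3a. Others are named as chosen after their values were seen. Copies were sought with blastn 2.17.0 among GENCODE M21 transcripts, with at least 95% identity over at least 50% of the transcript.

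Replicates of a genotype differed by more than sampling noise, with a chi-square per degree of freedom of 23.8 to 88.6. The labels give both groups replicate numbers 1 to 4. Deviations from the group means correlated within each of the 4 number pairs (0.129 to 0.501 over all genes), all above 0.1, so the numbers were taken to pair the mice, although without chromosomes X and Y only 2 pairs exceeded 0.1. The labels do not say what a number stands for.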

Additional observations from a re-analysis of the deposited data

Results flagged for a closer look

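In groups of 4 mice, the highest or lowest value was compared with the nearest of the others by Dixon's ratio of gap to range at its 95% level. Of 58 groups examined for the named genes, 3 exceeded it, where chance gives about 1 in 20, or 2.9. Mir17hg in KO replicate 2 had 11.1 CPM, below 15.4 to 15.8 CPM in the other 3 KO mice, and its log2 fold change without that mouse was -0.44 with an edgeR unadjusted p of 0.00566. Gm26917 in KO replicate 1 had 129 CPM, above 80.7 to 88.5 CPM in the other 3 KO mice. Gm42031 in Ctrl replicate 2 had 4.02 CPM, above 0.185 to 0.376 CPM in the other 3 Ctrl mice, and without that mouse its log2 fold change was 5.32.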

How the results depend on the processing

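Of the 14 lincRNAs called at an unadjusted p under 0.05, Mir17hg, AC171111.1, 4632404H12Rik, Gm26532, 5033406O09Rik and 1700016G22Rik passed in each of the alternatives run for them (the last of these entered the set only through its KO values), and the other 8 did not pass in at least 1. The number of lincRNAs called was 9 to 14 with 1 mouse left out and 19 with the replicate block (of 11.0% of all genes called), and the number called higher fell to 3 without Ctrl replicate 3, was at most 8 with another mouse left out and was 9 with the block. DESeq2 gave 1 lincRNA at an adjusted p under 0.05, and in the other alternatives the number was 0. Among all genes the adjusted count was 93 by DESeq2, 2 with no filter on low counts and with limma at either pseudocount, and 0 with the block. It was 4 with the Ddx3y covariate and 0 to 4 with 1 mouse left out. The unadjusted count ranged from 846 without KO replicate 3 to 2133 without KO replicate 1. Genotypes did not overlap for 7 to 13 lincRNAs with 1 mouse left out, as fewer mice must separate. A minimum of 0.5 FPKM gave 317 lincRNAs (280 tested, 19 or 6.79% called), and one of 2 FPKM gave 83, all 83 tested and 8 or 9.64% called, against 8.38% of all genes. The snoRNA hosts called lower numbered 3 with RLE factors, 2 with limma at either pseudocount, 8 with the block and 1 to 9 with 1 mouse left out. This count, and library sizes without mitochondrial rows, were added after seeing the data.

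The log2 fold change turned its sign in some fits for 6 lincRNAs near 0 that were not called. With 1 mouse left out it ran from -0.013 to 0.15 for Gm10076, -0.46 to 0.080 for AC102496.1, -0.22 to 0.31 for Gm42047, -0.083 to 0.057 for Tmem250-ps, -0.23 to 0.043 for Snhg6 and -0.029 to 0.070 for 1700020I14Rik. Tmem250-ps was at 0.0038 and 0.0042 with limma and 1700020I14Rik at -0.0049 with upper-quartile factors. The cause of these changes was not tested. Apart from the lincRNAs given above with a block value, the block changed no call of a named lincRNA.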

Other observations

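Below the level used here, 238 autosomal lincRNA rows with a mean under 1 FPKM had counts enough to be tested. Of these, 8 were called higher and 4 lower by edgeR at an unadjusted p under 0.05, 5.04%, and their median log2 fold change was -0.02. The rows nearest to the limit were Gm17322 and AC098838.1, with 1.0002 and 1.0004 FPKM, on the inside and Gm13572 and Ino80dos, with 0.990 and 0.974 FPKM, on the outside. By level, 4 of 30 lincRNAs with at least 5 FPKM were called, 4 of 53 from 2 to under 5 FPKM, and 6 of 97 tested under 2 FPKM, or 13.3%, 7.55% and 6.19%, against 8.38% of all genes.

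The lincRNAs farthest from coding genes, 28 tested ones over 50000 bases away, had a median log2 fold change of 0.00. Of these, 3 (10.7%) were called, against 8.38% of all genes. The 26 that overlap a coding gene had a median of -0.14 with 19 negative values. The 19 tested that lie within 5000 bases downstream of a coding gene on its strand had a median of -0.08. Of these 19, edgeR called 0 at the unadjusted threshold and 0 at the adjusted one, against 8.38% and 0.00621% of all genes.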
